A study of Homo sapiens with 24 samples.

Results

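Ewing sarcoma cells of the ES8 line that had received 2 Gy of gamma radiation were compared between 24 h and 4 h after the dose. Members were chosen by sample title: the 3 arrays of irradiated parental cells at 24 h and the 3 at 4 h, which are 6 of the 24 arrays of the series, with all 17687 genes that have 1 symbol.

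The study set this line beside a derivative without SLFN11, a gene whose protein blocks stressed replication forks, before and after irradiation. The groups used here are parental ES8 24 h and 4 h after 2 Gy, parental ES8 at the same times after 0 Gy, and ES8-1F2, a single derivative line with SLFN11 knocked out by CRISPR/Cas9, at both times after 2 Gy. Each group has 3 arrays, and the spread was estimated over all 8 groups of the series, which include the knockout line at 0 Gy. All cells grew in DMEM/F12 with glutamine and fetal bovine serum, and all were cultured for a further 4 h or 24 h after the 0 Gy or 2 Gy treatment. The labels leave unsaid whether the replicates were grown apart; the tests therefore weigh differences against a spread among 3 arrays that may be technical.

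A cell damaged by radiation halts before mitosis at the G2 checkpoint, where ATM, ATR and the checkpoint kinases keep CDK1 with cyclin B inactive. Transcripts of mitotic genes accumulate in G2 and M, driven by the MuvB complex with B-MYB and FOXM1, and are held down at other times by the DREAM repressor complex, which binds a promoter element called the cell cycle homology region (CHR). Many of the same promoters carry CCAAT boxes, which bind NF-Y. The level of these transcripts therefore depends on the phases the cells are in, which the arrays do not measure. Whether a checkpoint pause underlies any change in them was not tested. In an array of total RNA, a smaller number of cells in G2 and M and less RNA in each such cell cannot be told apart.

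Promoters of 7 mitotic genes with higher signal at 24 h and of ASNS are printed here as examples chosen for the elements they carry. ASNS is the asparagine synthetase gene and a target of the stress factor ATF4. Each line gives 120 bases before the annotated start and 15 from it, 5′ to 3′ on the gene's strand, from RefSeq on build GRCh38.p14. Capitals mark matches on either strand to TTTGAA or TTCGAA (CHR), to CCAAT, and, in ASNS, to TGATGNAA (a C/EBP-ATF element, which binds ATF4 dimers). In HMMR, CCAATTGG holds 2 overlapping CCAAT matches on opposite strands, and in MKI67, TTTGAATTGG joins a CHR match to an overlapping CCAAT match.
PLK1 (chr16:23678769-23678903, + strand): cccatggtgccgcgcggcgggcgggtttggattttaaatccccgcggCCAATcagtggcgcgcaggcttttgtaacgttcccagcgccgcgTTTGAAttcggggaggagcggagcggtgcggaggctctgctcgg
CCNB1 (chr5:69167030-69167164, + strand): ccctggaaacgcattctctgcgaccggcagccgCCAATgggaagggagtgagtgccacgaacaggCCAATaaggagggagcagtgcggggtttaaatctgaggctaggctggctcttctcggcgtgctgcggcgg
KIF23 (chr15:69414229-69414363, + strand): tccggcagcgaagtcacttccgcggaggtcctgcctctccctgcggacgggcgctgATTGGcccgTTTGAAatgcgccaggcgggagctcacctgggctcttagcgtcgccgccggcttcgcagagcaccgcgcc
HMMR (chr5:163460512-163460646, + strand): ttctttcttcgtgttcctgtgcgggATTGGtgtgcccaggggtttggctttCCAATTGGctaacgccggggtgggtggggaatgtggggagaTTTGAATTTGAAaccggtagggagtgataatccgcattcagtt
DEPDC1 (chr1:68497068-68497202, - strand): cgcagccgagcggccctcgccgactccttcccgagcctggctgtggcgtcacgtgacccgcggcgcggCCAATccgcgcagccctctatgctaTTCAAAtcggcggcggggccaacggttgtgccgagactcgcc
CDC20 (chr1:43358861-43358995, + strand): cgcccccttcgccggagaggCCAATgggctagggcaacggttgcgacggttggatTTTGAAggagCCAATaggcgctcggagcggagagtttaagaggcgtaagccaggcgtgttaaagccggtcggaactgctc
MKI67 (chr10:128126409-128126543, - strand): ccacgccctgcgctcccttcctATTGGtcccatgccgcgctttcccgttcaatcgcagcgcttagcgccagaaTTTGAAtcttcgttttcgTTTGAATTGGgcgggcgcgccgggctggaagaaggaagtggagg
ASNS (chr7:97872394-97872528, - strand): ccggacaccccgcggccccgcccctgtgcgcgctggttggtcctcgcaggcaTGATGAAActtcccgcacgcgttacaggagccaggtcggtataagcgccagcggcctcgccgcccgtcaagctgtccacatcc

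Over the whole window of 250 bases before to 50 after the start, RefSeq held a promoter for 14250 of the 17687 genes and for 23 of the 27 mitotic genes called higher at 24 h, a set described below. Of these 23 windows, 19 (82.6%) held a CHR match, 21 (91.3%) a CCAAT match and 19 both. Among mitotic genes without a call, 45 of 75 windows (60.0%) held a CHR match, 43 (57.3%) a CCAAT match and 27 (36.0%) both. Among the genes called higher that are in no mitotic list, 14 of 69 windows (20.3%) held a CHR match and 32 (46.4%) a CCAAT match. Over all 14250 windows the shares were 13.4% for CHR, 36.4% for CCAAT and 5.52% for both. The C/EBP-ATF element was matched in 1 of 3 windows of the ATF4 targets called higher, that of ASNS. Over all windows its share was 2.52%. A match describes the letters of the window only, and no test was made on these shares. In PLK1 the CHR match began 29 bases before the start and the CCAAT match 73 bases before it, while CCNB1 held 2 CCAAT matches and no CHR match.

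**Figure D1:**
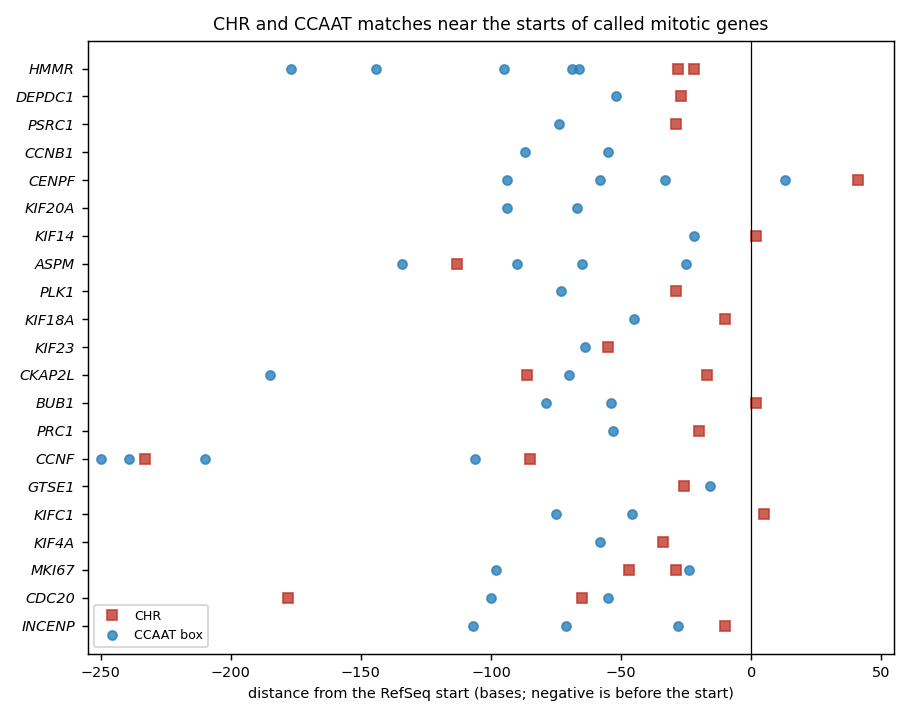
Positions of CHR and CCAAT matches in the promoter windows of called mitotic genes, in bases from the annotated start (horizontal axis, 0 at the start), with one gene per row. Of the 23 windows, 19 hold both kinds of match.

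Signals are log2 values, so a difference of 1 is a doubling. The ES8 label was checked against Ewing sarcoma markers: 7 of 8 were measured and all 7 were above background, with CD99 between 9.65 and 9.78 at 24 h and between 9.62 and 9.75 at 4 h, and FLI1 between 7.89 and 8.37 at 24 h and between 8.11 and 8.40 at 4 h. None of 12 epithelial, 11 blood and 10 endothelial markers measured changed, and their median differences were -0.03, 0.00 and -0.11. Of these, 8 epithelial, 4 blood and 6 endothelial markers were also above background. Signal above background therefore does not by itself establish the label. SLFN11 signal was 6.74 to 7.03 in irradiated knockout cells at 24 h and 6.33 to 6.72 at 4 h, against 8.30 to 8.63 in irradiated parental cells at 24 h and 8.03 to 8.23 at 4 h. Correlations between the irradiated parental arrays were 0.985 to 0.993 within a group and 0.984 to 0.992 between 24 h and 4 h. Replicate 2 stood apart at both times, with the narrowest spread of signals: its interquartile range was 3.34 at 24 h and 3.28 at 4 h, and the range of the other 22 arrays was 3.42 to 3.62.

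Between 4 h and 24 h after irradiation, the transcripts that changed were mostly higher at the later time. In limma at an adjusted p below 0.05, 114 genes were higher at 24 h (0.645% of those tested) and 9 were lower (0.0509%); 1556 genes, 8.80%, had an unadjusted p below 0.05. Of the higher genes, 105 were above background on all 6 arrays, and their changes ran between 0.27 and 1.30 with a median of 0.60 and 10 genes at least doubled. Of the other 9, 6 had no 4 h array above background and 3 had 1, so the size of their change is uncertain. The 9 lower genes were above background on all 6 arrays and fell by 0.30 to 0.71. Signals of the groups did not overlap for 113 of the 114 genes and for all 9 of the lower ones, where 6.85% of all genes were higher at 24 h without overlap and 5.25% lower. In unirradiated parental cells the same interval gave 0 calls (0%) in limma, with 830 genes at an unadjusted p below 0.05 and a lowest adjusted p of 0.329. With replicate 2 left out at both times, 49 genes were higher and 1 lower, and leaving out 24 h replicate 1, 24 h replicate 3, 4 h replicate 1 or 4 h replicate 2 alone gave 39, 59, 49 or 75 higher. Of the 123 calls, 32 stood whichever of the 6 arrays was left out. The median 95% interval of a change reached 0.31 log2 units to either side, with 3 arrays a group.

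**Figure D2:**
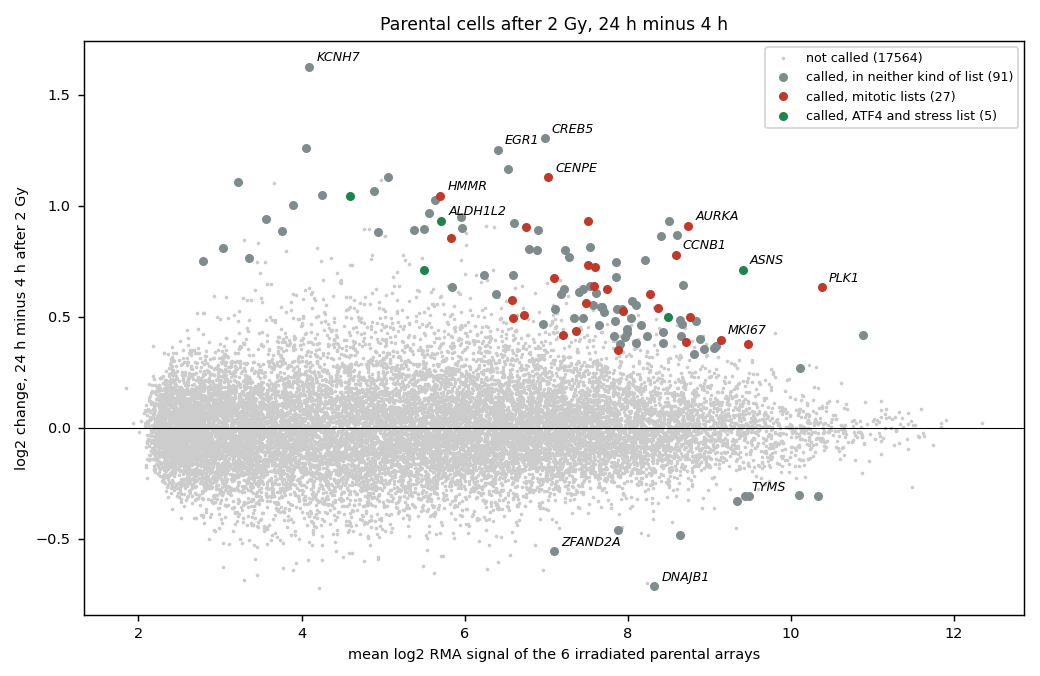
Change between 24 h and 4 h after 2 Gy (vertical axis, log2) against mean signal (horizontal axis, log2) for every gene in parental cells; coloured points are genes called by limma, by kind of list. The 114 called rises lie at fitted differences of 0.27 to 1.63, genes near background included, and the 9 called falls by 0.30 to 0.71 below it.

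After 2 Gy, a minority of the mitotic genes measured, kinases, kinesins and cytokinesis genes among them, were called higher at 24 h than at 4 h. Across 5 lists of mitotic genes, 117 of 121 members were measured, 27 were called higher (23.1%) and 0 lower (limma), beside 0.645% higher over all genes. Their median change was 0.20, beside -0.01 for all genes. With replicate 2 left out at both times, 16 mitotic genes were called, and without 24 h replicate 1, 24 h replicate 3 or 4 h replicate 2 the count was 15, 16 or 17. The calls that stood whichever array was left out were those of AURKA, PLK1, CCNB1, CENPE, CENPF, KIF14, KIF20A, KIF23, HMMR, DEPDC1, PSRC1, GAS2L3, ASPM, PRC1 and RACGAP1, 15 in all. PRC1, RACGAP1, CCNF, TPX2, UBE2C, CCNA2, CDK1, CCNB2, BUB1B, AURKB, FOXM1, KIF11, KIF15, KIF4A, KIFC1 and WEE1 are named after their values were seen.

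Among mitotic cyclins and kinases, 6 of 24 were called higher and the list's median change was 0.21. AURKA, the kinase that matures centrosomes and helps to activate PLK1, had signals of 9.22, 9.21 and 9.15 at 24 h, against 8.44, 8.24 and 8.17 at 4 h. All 24 h arrays were above all 4 h arrays, by 0.91 ± 0.08 on average (SE; n = 3 each; limma adjusted p = 7.90e-08), a 1.88-fold difference and the lowest adjusted p of the comparison. PLK1, the kinase that drives mitotic entry and spindle assembly, had 10.70, 10.66 and 10.73 at 24 h, against 10.10, 10.09 and 10.01 at 4 h. The arrays of each time lay close together and the groups did not overlap. The change was 0.63 ± 0.07 (SE; limma adjusted p = 1.58e-06). CCNB1, which encodes cyclin B1, the partner of CDK1 at mitotic entry, had 9.03, 8.84 and 9.06 at 24 h, against 8.37, 7.91 and 8.31 at 4 h. Replicate 2 was the lowest array at each time, and the change was 0.78 (limma adjusted p = 1.40e-05) with all arrays.

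The spindle checkpoint kinases BUB1 and TTK rose by 0.56 and 0.52 (limma adjusted p = 0.0137 for each), and CCNF, which encodes the cyclin of an SCF ubiquitin ligase, by 0.51 (limma adjusted p = 0.0286). The BUB1 call was lost without 24 h replicate 1 or 4 h replicate 2, and the TTK call without either of these or 24 h replicate 3, with limma adjusted p-values over all alternatives of up to 0.164 for BUB1. Other members of the list had small differences without a call: CCNA2 0.21, CCNB2 0.21, CDK1 0.17, BUB1B 0.17, FOXM1 0.11 and AURKB 0.04. The difference for WEE1, the kinase that inhibits CDK1, was 0.32 (limma adjusted p = 0.122), with 8.19, 8.10 and 8.14 at 24 h, against 7.82, 7.80 and 7.85 at 4 h.

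The mitotic kinesins, motors that move chromosomes and build the midzone, had the highest median of the 5 lists, 0.42, with 7 of 13 called higher. CENPE, the kinetochore motor that carries chromosomes to the spindle equator, had 7.67, 7.52 and 7.58 at 24 h, against 6.48, 6.55 and 6.36 at 4 h. The groups were about a log2 unit apart with no overlap, and the change was 1.13 ± 0.13 (SE; limma adjusted p = 6.30e-06), 2.19-fold. KIF20A, a kinesin of cytokinesis, had 8.16, 7.66 and 8.06 at 24 h, against 7.46, 6.93 and 7.31 at 4 h. Replicate 2 was again lowest at each time, and the change was 0.72 (limma adjusted p = 0.00144). KIF14, KIF18A and KIF23 rose by 0.67, 0.62 and 0.60 (limma adjusted p = 0.00135, 0.0292 and 0.00110); the KIF18A call was lost without 24 h replicate 1, 24 h replicate 3 or 4 h replicate 2. KIF4A and KIFC1 rose by 0.42 and 0.43, and KIFC1 is the called gene whose groups overlapped, with 7.70, 7.33 and 7.74 at 24 h and 7.13, 6.99 and 7.34 at 4 h. KIF11, the motor that separates spindle poles, and KIF15, which can stand in for it, had differences of 0.12 and -0.01 and no call.

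Of 34 measured genes of the spindle, cohesion, condensin and cytokinesis, 11 were called higher, with a median of 0.36. HMMR, a spindle pole protein, had 6.26, 6.14 and 6.26 at 24 h, against 5.47, 4.62 and 5.43 at 4 h. The lowest value was that of 4 h replicate 2, and the change of 1.05 (limma adjusted p = 0.00286) had a limma adjusted p of 0.0851 with replicate 2 left out at both times. DEPDC1, a cell division gene, had 7.28, 6.85 and 7.46 at 24 h, against 6.34, 6.22 and 6.32 at 4 h. GAS2L3, which links actin and microtubules in cytokinesis, had 8.06, 7.93 and 7.94 at 24 h, against 7.13, 7.32 and 6.69 at 4 h. The changes of DEPDC1 and GAS2L3 were 0.90 and 0.93 (limma adjusted p = 0.00149 and 0.000331), and neither gene's groups overlapped. PSRC1, a microtubule-binding protein, and ASPM, which works at spindle poles, rose by 0.85 and 0.64 (limma adjusted p = 0.00182 and 0.00389). PRC1, which bundles midzone microtubules, and RACGAP1, which forms the centralspindlin complex with KIF23, rose by 0.54 and 0.50, and TPX2, the activator of AURKA, by 0.38 (limma adjusted p = 0.0239).

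Of the kinetochore and centromere genes, 2 of 32 were called higher, CENPF by 0.73 (limma adjusted p = 8.13e-06) and INCENP by 0.35 (limma adjusted p = 0.0458), and the median was -0.03. CENPF, a large kinetochore protein made in G2, had 7.84, 7.88 and 7.93 at 24 h, against 7.20, 7.04 and 7.20 at 4 h. INCENP, the scaffold of the chromosomal passenger complex, had 7.99, 8.10 and 8.08 at 24 h, against 7.71, 7.72 and 7.69 at 4 h. Neither gene's groups overlapped, and the INCENP call was lost whichever of the 6 arrays was left out, at limma adjusted p-values up to 0.257 over all alternatives. Of 14 anaphase-promoting complex genes and their substrates, 1 was called and the median was 0.07. That gene was CDC20, the activator of the complex, with 9.68, 9.65 and 9.66 at 24 h, against 9.42, 9.10 and 9.33 at 4 h. It changed by 0.38 (limma adjusted p = 0.0347), a call that was lost whichever array was left out, 4 h replicate 1 excepted. The difference for UBE2C, the ubiquitin-conjugating enzyme of the complex, was 0.40 (limma adjusted p = 0.138). SGO2, which protects centromeric cohesion, had a difference of 0.52 with overlapping groups (limma adjusted p = 0.294). MKI67, the proliferation marker Ki-67, had 9.34, 9.33 and 9.34 at 24 h, against 9.01, 8.99 and 8.82 at 4 h, a change of 0.40 (limma adjusted p = 0.0170). That call was lost without 24 h replicate 1, 24 h replicate 3 or 4 h replicate 3.

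**Figure D3:**
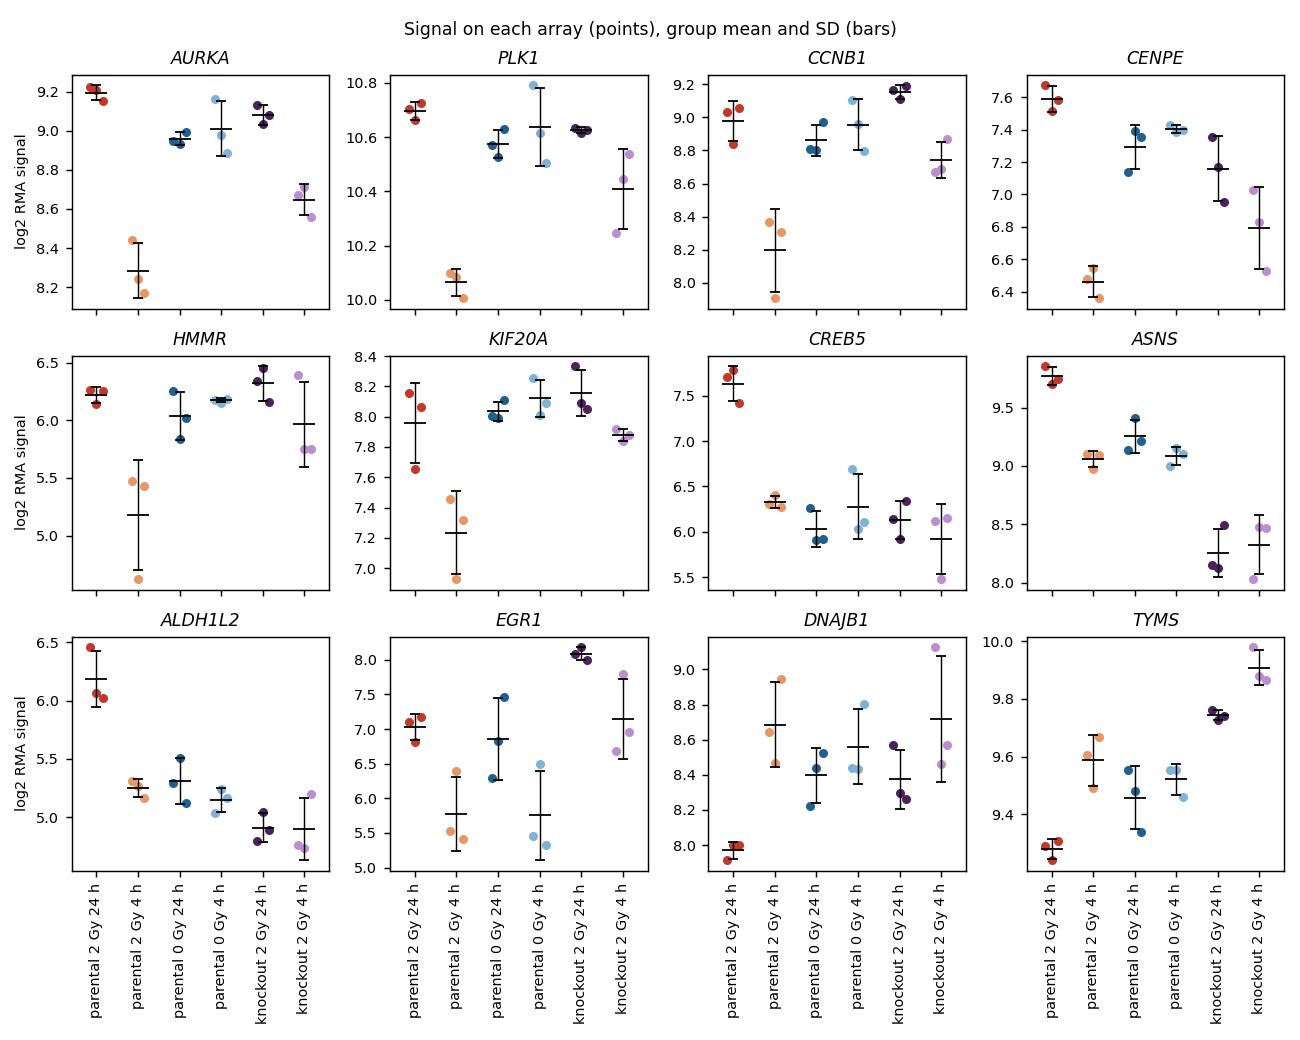
Signal on each array (vertical axis, log2) of AURKA, PLK1, CCNB1, CENPE and other genes described in the text, with a panel per gene; points are arrays and bars the group mean and SD, for parental cells after 2 Gy and 0 Gy and knockout cells after 2 Gy, at 24 h and 4 h. In parental cells after 2 Gy, AURKA lies between 9.15 and 9.22 at 24 h and between 8.17 and 8.44 at 4 h.

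The course of these genes without irradiation was measured in cells harvested at the same times. In them, the mitotic genes had a median change of -0.07 with 0 called by limma in either direction. A difference below 0 was found for 18 of 24 cyclins and kinases, beside 8952 of 17687 genes. The change after 2 Gy minus the change at 0 Gy was tested gene by gene in the same fit: 13 genes had a larger change after 2 Gy (0.0735%) and 0 a smaller one in limma, with 865 at an unadjusted p below 0.05. Of the 13 genes, 10 are in the mitotic lists: CENPE 1.24, DEPDC1 1.12, GAS2L3 1.01, AURKA 0.96, CCNB1 0.88, KIF23 0.84, PLK1 0.69, CENPF 0.65, RACGAP1 0.59 and PRC1 0.59. The other 3 were CREB5, TRIM59 and ZNF850. The calls of AURKA, CCNB1, CENPE, KIF23, PLK1 and CREB5 stood whichever of the 12 arrays was left out. Counts were 6 without 2 Gy 24 h replicate 1, 2 Gy 24 h replicate 3, 0 Gy 24 h replicate 3 or 0 Gy 4 h replicate 1. They were 8 without 2 Gy 4 h replicate 2, and up to 21 over the 12.

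AURKA illustrates where the 4 groups lay. Its signals at 0 Gy were 8.95, 8.93 and 9.0 at 24 h, against 9.16, 8.98 and 8.89 at 4 h. The irradiated 4 h arrays, 8.17 to 8.44, were the low group, and the irradiated 24 h arrays, 9.15 to 9.22, lay above the unirradiated ones, except that 0 Gy 4 h replicate 1, at 9.16, lay among them. The difference of 0.96 ± 0.12 between the courses had a limma adjusted p of 7.40e-05. CCNB1 at 0 Gy had 8.81, 8.80 and 8.97 at 24 h, against 9.11, 8.96 and 8.80 at 4 h. Its irradiated 24 h arrays, 8.84 to 9.06, fell within the range of the unirradiated arrays, and its irradiated 4 h arrays, 7.91 to 8.37, fell below all of them (limma adjusted p = 0.00176 for the difference between courses). CENPE at 0 Gy had 7.14, 7.39 and 7.35 at 24 h, against 7.43, 7.39 and 7.40 at 4 h. Here the irradiated 24 h arrays, 7.52 to 7.67, lay above every unirradiated array. Over the 5 mitotic lists together, the median deviation from each gene's mean over all arrays was 0.03, -0.16 and 0.03 on the irradiated 24 h arrays and -0.17, -0.33 and -0.23 on the irradiated 4 h arrays. On unirradiated arrays it was -0.04, -0.01 and -0.03 at 24 h and 0.10, 0.00 and 0.03 at 4 h. Replicate 2 was the lowest irradiated array at each time.

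No gene of the S phase lists was called higher. None of 22 G1/S and E2F genes, 46 replication origin and fork genes and 43 repair and checkpoint genes was called in limma, and their medians were 0.04, -0.12 and -0.01. Of the 46 replication genes 42 had a difference below 0, beside 9171 of 17687 genes. Of 49 replication-dependent histone genes 44 did, with a median of -0.15 and 0 calls. At 0 Gy 26 of the replication genes and 18 of the histone genes were below 0, with medians of -0.02 and 0.04. In irradiated knockout cells 36 and 38 were below 0. TYMS, thymidylate synthase, which makes the thymidylate for DNA, had 9.29, 9.24 and 9.31 at 24 h, against 9.60, 9.49 and 9.67 at 4 h. It fell by 0.31 without overlap (limma adjusted p = 0.0243) and was the 1 call among 13 nucleotide synthesis genes; the call was lost whichever array was left out, 4 h replicate 2 excepted.

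**Figure D4:**
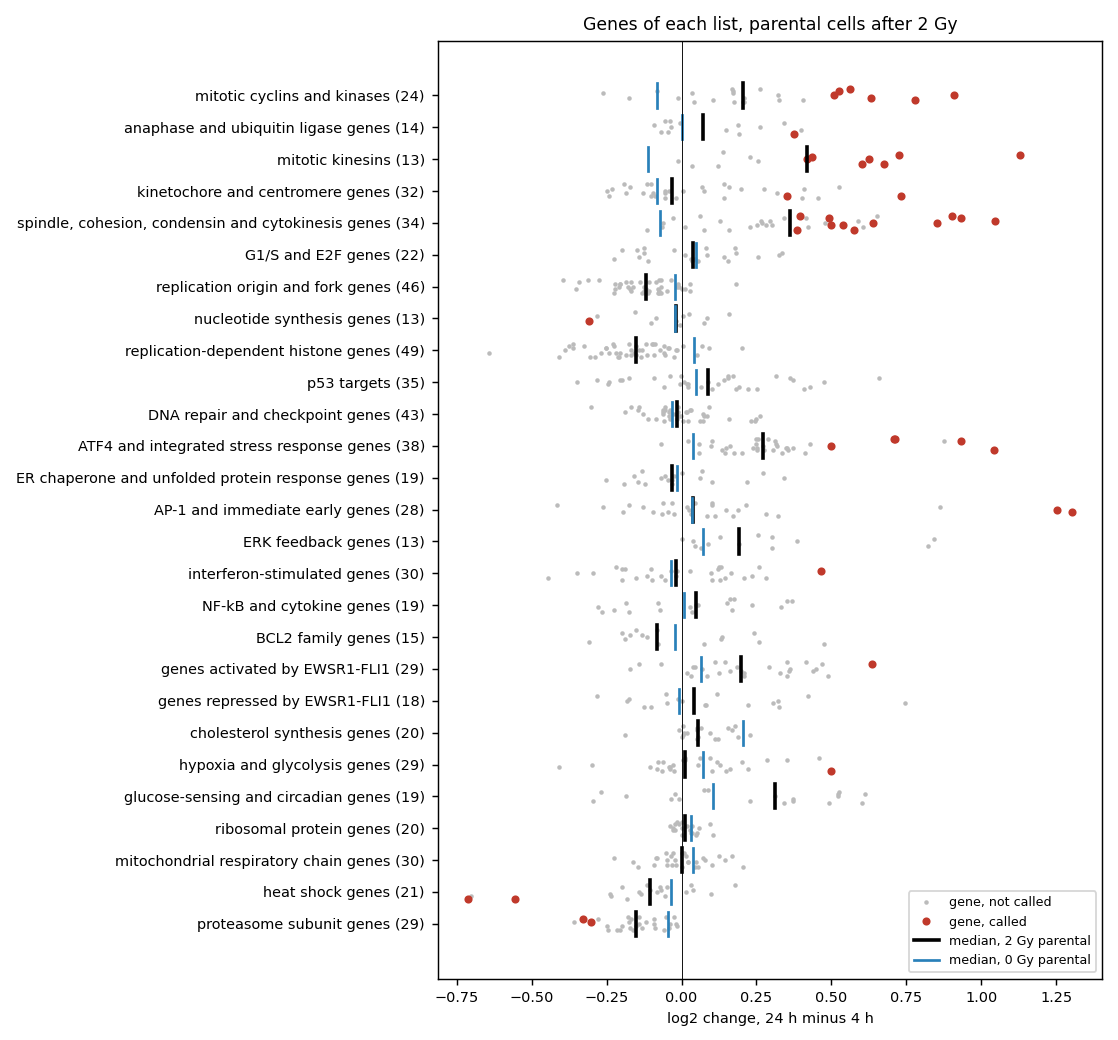
Change between 24 h and 4 h after 2 Gy of each gene (points, red where called by limma; horizontal axis, log2) by gene list (rows, with the number measured), with the list's median after 2 Gy (black bar) and at 0 Gy (blue bar) in parental cells. The kinesin list reaches 0.42 after 2 Gy and -0.11 at 0 Gy, and the proteasome list -0.15 after 2 Gy.

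None of the 35 p53 targets measured was called in limma, and their median was 0.09. Both groups were irradiated, so this difference does not measure the response to the dose. CDKN1A, the CDK inhibitor p21, had 4.18, 4.83 and 4.18 at 24 h and 4.02, 4.63 and 3.87 at 4 h, close to the background level of 3.46 to 3.81. MDM2, the ubiquitin ligase of p53, had 7.81, 7.21 and 7.67 at 24 h, against 7.51, 7.37 and 7.74 at 4 h. The groups of each gene overlapped, and the differences of 0.22 and 0.02 had limma adjusted p-values of 0.889 and 0.988. Means at 0 Gy were 4.15 at 24 h and 4.18 at 4 h for CDKN1A, and 7.64 and 7.77 for MDM2. The differences for PMAIP1, which encodes the BH3-only protein NOXA, and for GDF15, a secreted stress cytokine, were 0.47 and -0.24 (limma adjusted p = 0.228 and 0.862). At 0 Gy PMAIP1 changed by -0.35 and GDF15 by 0.15. The differences between the courses were 0.82 and -0.39, without a call (limma adjusted p = 0.282 and 0.998). FAS, the death receptor, had the largest difference of the list, 0.66 (limma adjusted p = 0.124), and is named after its value was seen.

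A few targets of ATF4, the transcription factor of the integrated stress response, which induces amino acid synthesis and transport, were called higher at 24 h. Of 38 measured members, 5 were called higher by limma, beside 0.645% of all genes. A difference above 0 was found for 37 members, beside 8516 of 17687 genes, and the median was 0.27, beside -0.01 for all genes. ASNS had 9.85, 9.70 and 9.75 at 24 h, against 9.10, 8.98 and 9.09 at 4 h. The groups did not overlap, and the change was 0.71 ± 0.13 (SE; limma adjusted p = 0.00220). ALDH1L2, a mitochondrial enzyme of folate metabolism, had 6.46, 6.06 and 6.02 at 24 h, against 5.31, 5.27 and 5.16 at 4 h, a change of 0.93 (limma adjusted p = 0.00169). NIBAN1, a stress-induced regulator of translation, rose by 1.04 (limma adjusted p = 0.0216). CTH, the enzyme that makes cysteine from cystathionine, rose by 0.71, and VEGFA, the angiogenic factor, by 0.50 (limma adjusted p = 0.0358 and 0.0313). VEGFA changed by 0.29 at 0 Gy and by 0.51 in irradiated knockout cells, without a call in either. Its difference from the course at 0 Gy was 0.20 (limma adjusted p = 0.998). The VEGFA call was lost without 24 h replicate 1, 24 h replicate 2, 4 h replicate 1 or 4 h replicate 3. The NIBAN1 call was lost without replicate 1 or replicate 3 of either time. The ASNS and ALDH1L2 calls stood whichever array was left out and the CTH call was lost whichever was. Of the list, 3 were called with replicate 2 left out at both times, and 2 without 24 h replicate 1, 4 h replicate 1 or 4 h replicate 3. Other settings gave more: 11 with array weights, and with the replicate number as a block 10 over all arrays and 14 over the compared arrays only. Without the intensity trend 3 were called.

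As a list, ATF4 targets had signals at 0 Gy near those at 4 h after 2 Gy. ASNS at 0 Gy had 9.14, 9.41 and 9.21 at 24 h, against 9.0, 9.16 and 9.10 at 4 h. The list's median deviation was 0.33, 0.34 and 0.26 on the irradiated 24 h arrays and 0.03, 0.09 and 0.07 on the irradiated 4 h arrays, against 0.01, 0.10 and 0.04 at 24 h and -0.03, -0.01 and -0.01 at 4 h on unirradiated arrays. The difference between the courses had a median of 0.20 over the list, and no member passed the test in limma (for ASNS 0.54, adjusted p = 0.615). CHAC1, which degrades glutathione, had 7.12, 6.95 and 7.14 at 24 h and 6.85, 6.72 and 6.71 at 4 h after 2 Gy. Its groups did not overlap but the difference of 0.31 missed the threshold (limma adjusted p = 0.611); unirradiated signals were lower, 5.62 to 6.12 at 24 h and 6.04 to 6.17 at 4 h. TRIB3, a pseudokinase that restrains ATF4 and is named after its value was seen, had 6.66, 6.59 and 6.11 at 24 h and 5.73, 5.56 and 5.45 at 4 h (0.88; limma adjusted p = 0.111). The difference for ATF3, a factor that ATF4 induces, was 0.25 with overlapping groups.

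CREB5, a member of the ATF and CREB family of transcription factors, had the largest rise among called genes above background on all 6 arrays. Its signals were 7.70, 7.78 and 7.42 at 24 h, against 6.31, 6.40 and 6.27 at 4 h. At 0 Gy they were 6.26, 5.91 and 5.92 at 24 h, against 6.69, 6.03 and 6.11 at 4 h. The irradiated 24 h arrays were thus the high group, the change was 1.30 ± 0.18 (SE; limma adjusted p = 7.75e-05), and the change after 2 Gy exceeded that at 0 Gy by 1.55 (limma adjusted p = 0.00286). EGR1, an immediate early zinc finger factor, had 7.11, 6.81 and 7.17 at 24 h, against 5.53, 6.39 and 5.42 at 4 h. It rose by 1.25 (limma adjusted p = 0.0239), but the change at 0 Gy was 1.11 and the difference between the courses 0.15. The EGR1 call was lost without 24 h replicate 1, 24 h replicate 3, 4 h replicate 1 or 4 h replicate 3, with limma adjusted p-values up to 0.177 over all alternatives. The difference for JUN, the AP-1 subunit, was 0.86 (limma adjusted p = 0.0660), with 5.29, 5.82 and 5.24 at 24 h and 4.65, 4.29 and 4.82 at 4 h. At 0 Gy JUN changed by -0.16, and the difference between its courses was 1.03 without a call (limma adjusted p = 0.479). CREB5 and EGR1 were the calls among 28 AP-1 and immediate early genes, whose median was 0.04. All 13 ERK feedback genes had differences above 0, beside 8516 of 17687 genes, with a median of 0.19 and 0 calls. At 0 Gy 7 of the 13 were above 0, and in irradiated knockout cells 8 were.

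KCNH7, a voltage-gated potassium channel gene, had the largest fitted difference. It had 5.07, 4.92 and 4.74 at 24 h, against 3.19, 3.40 and 3.27 at 4 h, where no array was above background. It was at least 2.62-fold higher at 24 h (limma adjusted p = 2.15e-05), where the bound takes the dim group at the higher of the background level and its own signal. APOH, which encodes a plasma lipid-binding protein, and GAPT, a GRB2-binding membrane protein, were likewise below background at 4 h and at least 1.42-fold and 1.19-fold higher at 24 h (limma adjusted p = 0.00109 and 0.00973). The GAPT call was lost without 24 h replicate 3 or 4 h replicate 1, while those of KCNH7 and APOH stood whichever array was left out. SCNN1G, a subunit of the epithelial sodium channel, rose by 1.16, CCNG2, a cyclin that slows the cell cycle, by 1.13 and ADGRG7, an adhesion G protein-coupled receptor, by 0.97 (limma adjusted p = 0.0215, 0.00372 and 0.00144). The SCNN1G call was lost whichever array was left out, 4 h replicate 3 excepted, while CCNG2 and ADGRG7 kept their calls without each array in turn, and CCNG2 lost its call, at a limma adjusted p of 0.107, with replicate 2 left out at both times. MYD88, the adaptor of Toll-like receptors, had 4.54, 4.34 and 4.32 at 24 h, against 3.26, 3.58 and 3.35 at 4 h, where 1 of 3 arrays was above background. It was called higher (limma adjusted p = 0.0101), as was SCRG1 (limma adjusted p = 0.0357), also above background on 1 of 3 arrays at 4 h, and the size of both changes is uncertain. The MYD88 call was lost without 24 h replicate 1 or 4 h replicate 1, and the SCRG1 call whichever array but 24 h replicate 2 was left out. ANKRD29, CEMIP2, LONRF3 and CLUL1 rose by 0.95 to 1.07. The CLUL1 call was lost whichever array was left out, the ANKRD29 call whichever but 4 h replicate 3, the CEMIP2 call without 24 h replicate 1 or 4 h replicate 1, and the LONRF3 call without 24 h replicate 3 or 4 h replicate 1. MBD3L5 rose by 0.93, but it has near-identical copies on the same chromosome, MBD3L3 and MBD3L4, whose probes may read each other. The MBD3L5 call was lost without 4 h replicate 1. At 0 Gy the fitted change was 0.64 for SCRG1, 0.51 for ANKRD29 and LONRF3, 0.49 for KCNH7 and 0.38 for MBD3L5. It was 0.30 for CEMIP2 and 0.18 for CLUL1, and -0.14 to 0.06 for SCNN1G, CCNG2, ADGRG7, MYD88, APOH and GAPT. None of these genes passed limma's test of the difference from the course at 0 Gy (adjusted p = 0.208 for KCNH7).

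Single calls fell in several other lists. NPY1R, a neuropeptide Y receptor and a target of the EWSR1-FLI1 fusion, rose by 0.64 (limma adjusted p = 0.0313), a call lost whichever array but 24 h replicate 3 was left out and the 1 call among 29 genes activated by the fusion. The median of that list was 0.20, with 26 of 29 differences above 0, beside 8516 of 17687 genes. At 0 Gy 20 of the 29 were above 0, and in irradiated knockout cells 22 were. IFI6 rose by 0.47 (limma adjusted p = 0.0269), a call lost whichever array but 4 h replicate 1 was left out and the 1 call among 30 interferon-stimulated genes, whose median was -0.02. The median was 0.31 for 19 glucose-sensing and circadian genes, with 0 calls in limma, 0.05 for 19 NF-kB and cytokine genes, -0.08 for 15 BCL2 family genes, 0.04 for 18 genes repressed by the fusion and -0.03 for 19 genes of the unfolded protein response. Cholesterol synthesis, hypoxia, ribosomal protein and respiratory chain lists had medians of 0.05, 0.01, 0.01 and 0.00. The last of these changed sign when the arrays were quantile normalized again or their medians subtracted. VEGFA, described with the ATF4 targets, was also the 1 call among 29 hypoxia and glycolysis genes. SLFN11 itself had 8.63, 8.34 and 8.30 at 24 h and 8.05, 8.03 and 8.23 at 4 h, a difference of 0.32 (limma adjusted p = 0.421).

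Among the 9 genes that were lower at 24 h, the largest falls were those of DNAJB1 and ZFAND2A. DNAJB1, the HSP40 co-chaperone that heat shock induces, had 7.92, 8.0 and 8.0 at 24 h, against 8.64, 8.46 and 8.94 at 4 h. It fell by 0.71 without overlap (limma adjusted p = 0.0161). ZFAND2A, a heat- and arsenite-induced proteasome adaptor, had 6.91, 6.61 and 6.94 at 24 h, against 7.46, 7.22 and 7.45 at 4 h, and fell by 0.56 (limma adjusted p = 0.0161). PSMD1 and PSMD11, subunits of the regulatory particle of the proteasome, fell by 0.33 and 0.30 (limma adjusted p = 0.0347 and 0.0379). STAG1, a cohesin subunit, fell by 0.46, JMJD8 by 0.48 and HNRNPDL, an RNA-binding protein, by 0.31. The number of genes called lower was 0 to 17 when single arrays were left out: 4, 2, 0, 17 and 5 without 24 h replicate 1, 24 h replicate 2, 4 h replicate 1, 4 h replicate 2 and 4 h replicate 3. None of the 9 calls therefore stood without 4 h replicate 1, the DNAJB1 and ZFAND2A ones included.

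Lists of heat shock and proteasome genes were written after these falls were seen, so their counts describe only. Of 21 heat shock genes measured, 16 had a difference below 0, beside 9171 of 17687 genes. Their median was -0.10, and DNAJB1 and ZFAND2A were the 2 calls. HSPA1A, the inducible HSP70 gene, had 7.95, 7.67 and 8.04 at 24 h and 8.50, 8.20 and 9.06 at 4 h (-0.70; limma adjusted p = 0.140). All 29 proteasome subunit genes had a difference below 0, with a median of -0.15, and PSMD1 and PSMD11 were the 2 calls. At 0 Gy 17 of the heat shock genes and 21 of the proteasome genes had a difference below 0. The medians there were -0.04 for heat shock genes and -0.05 for proteasome genes. No member had a smaller or larger course after 2 Gy by limma's test of the difference.

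The knockout line after 2 Gy gives the same comparison on arrays that share no sample with it. There 8 genes were higher at 24 h than at 4 h (0.0452%) and 0 lower in limma, with 1405 at an unadjusted p below 0.05. Of the 114 genes called higher in parental cells, 105 (92.1%) had a difference above 0 in knockout cells, where 50.8% of all genes did, with a median of 0.26 beside 0.63 in parental cells. These genes were chosen for their change on the irradiated parental arrays, which raises the parental median but not their medians on other arrays. The medians therefore do not compare the size of the change between groups. AURKA, DLX5 and GAPT passed the test in both lines, and DLX5 is named after its value was seen. However, without 24 h replicate 1 or 4 h replicate 1 of the knockout line 0 genes were called higher in it. The count was 1, 13 or 4 without 24 h replicate 2, 24 h replicate 3 or 4 h replicate 3 of that line. All 9 genes called lower had a difference below 0 in knockout cells, with a median of -0.17. In unirradiated parental cells, on 6 other arrays, 72 of the 114 (63.2%) had a difference above 0, where 49.4% of all genes did, and the median was 0.06.

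**Figure D5:**
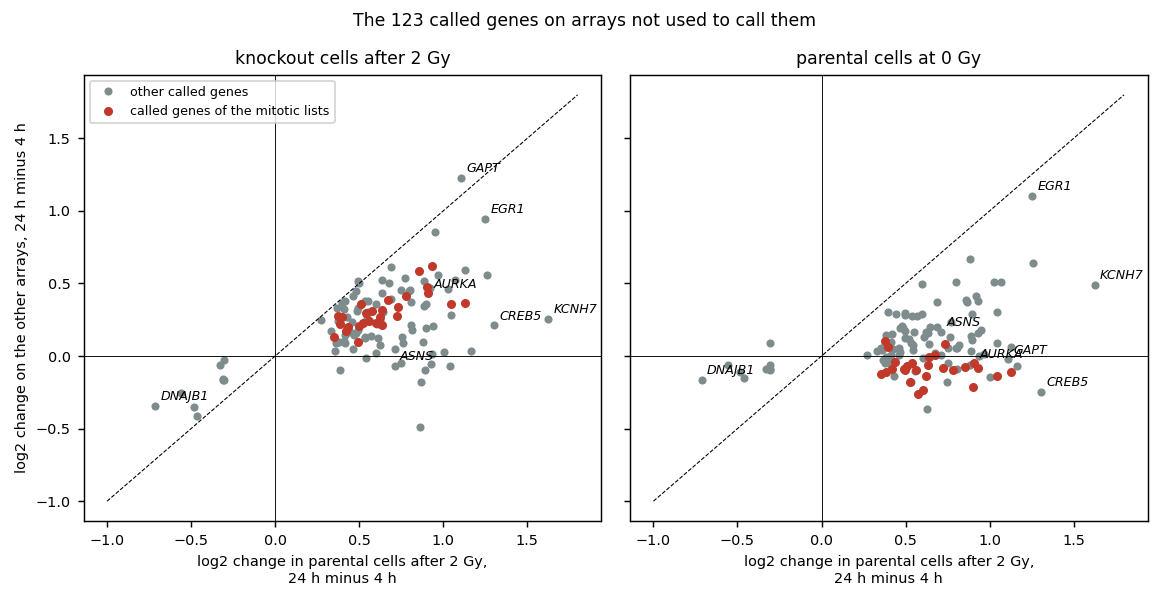
Change between 24 h and 4 h of the 123 called genes in irradiated knockout cells and in unirradiated parental cells (vertical axes, log2) against the change in irradiated parental cells (horizontal axis, log2), with a point per gene. In the knockout panel 105 of the 114 genes called higher lie above 0. The genes were chosen for their change on the horizontal axis, so distances along the axes do not compare sizes between groups.

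The courses of the lines after 2 Gy were compared directly. No gene differed in limma (0% in either direction), the lowest adjusted p was 0.256 and 628 genes had an unadjusted p below 0.05. The median 95% interval of such a difference reached 0.44 to either side. AURKA rose by 0.43 in knockout cells (limma adjusted p = 0.0368), with 9.13, 9.03 and 9.08 at 24 h, against 8.67, 8.71 and 8.56 at 4 h. The irradiated 4 h arrays of the parental line, 8.17 to 8.44, lay below those of the knockout line, and the parental minus knockout difference in course was 0.48 (limma adjusted p = 0.434). Over the mitotic lists the median change was 0.10 in knockout cells with 1 call, beside 0.20 and 27 in parental cells, and the median difference was 0.12. ATF4 targets had a median change of 0.02 in knockout cells, beside 0.27 in parental cells. ASNS had 8.15, 8.13 and 8.50 at 24 h and 8.03, 8.48 and 8.47 at 4 h in knockout cells, with overlapping groups and a change of -0.07. The parental minus knockout difference in course was 0.78 for ASNS, 0.92 for ALDH1L2 and 1.09 for CREB5 (limma adjusted p = 0.300, 0.429 and 0.300), so these differences between the lines are not called.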

How the data were processed

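RNA of 24 samples was measured on Affymetrix whole-transcript arrays. The authors deposited log2 signals for each probe set. Per the submitters' processing notes these come from RMA (background correction, quantile normalization and summary) and Affymetrix Expression Console 1.1; the set of arrays normalized jointly is not given in the sources. Of 24351 probe sets, 17709 have 1 symbol in the platform annotation and none several; for 20 genes with more than 1, the brightest was kept, leaving 17687 genes with no filter on dim ones. Background was the 95th percentile of 612 negative controls per array.

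Same-numbered arrays of the compared groups were checked for shared deviations, with the result given under the alternatives. In R 4.3.3, limma 3.58.1 (lmFit; eBayes with an intensity trend) fitted 1 mean per group over all 24 arrays, and Benjamini-Hochberg adjustment ran over all genes. The tested quantities were 24 h minus 4 h in parental cells after 2 Gy, in parental cells at 0 Gy and in knockout cells after 2 Gy, and the first minus each of the others. The fit was tested on simulated data. Alternatives were the compared arrays alone, a replicate block, array weights, no trend, a filter on dim genes, 2 rescalings, and each array left out in turn.

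Named genes are the 20 largest called rises and falls without overlap, up to 5 called members per list, up to 10 calls per difference, and 20 readouts; others are pointed out as named after their values were seen. A single gene among those the rule names is not reported here, and the others are. The members and the 29 lists were chosen with earlier results of these data known, and 2 further lists were written after the values were seen. Of 768 entries in the 29 lists, 692 were measured, and the others are not analysed here. Promoters are from RefSeq, the first window per gene.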

Additional observations from a re-analysis of the deposited data

Results flagged for a closer look

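The course after 2 Gy differed from the course at 0 Gy by limma's test of the difference for 13 genes, each with a larger 24 h minus 4 h change after 2 Gy. The differences, on the log2 scale, were 1.55 for CREB5, 1.24 for CENPE, 1.12 for DEPDC1, 1.01 for GAS2L3, 0.99 for TRIM59, 0.96 for AURKA, 0.93 for ZNF850, 0.88 for CCNB1, 0.84 for KIF23, 0.69 for PLK1, 0.65 for CENPF, 0.59 for RACGAP1 and 0.59 for PRC1. Their limma adjusted p-values ran between 7.40e-05 for AURKA and 0.0293 for PRC1. TRIM59, a ubiquitin ligase, had 7.80, 7.57 and 7.92 at 24 h, against 7.05, 6.93 and 7.42 at 4 h after 2 Gy, with means of 7.58 at 24 h and 7.94 at 4 h without irradiation. ZNF850, a zinc finger gene, had 8.18, 8.15 and 8.36 at 24 h, against 7.70, 7.50 and 7.25 at 4 h after 2 Gy, with means of 7.78 at 24 h and 7.96 at 4 h without irradiation. Groups of 3 arrays are too small for a test of single outlying arrays.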

How the results depend on the processing

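The number of calls moved with the processing. Over 15 alternatives the direction of the genes named by the rule turned only for MDM2, which was never called: it was -0.0021 when quantile normalization was repeated and ran between -0.10 and 0.20 with single arrays left out (-0.10 without 24 h replicate 1, -0.03 without 24 h replicate 3, -0.06 without 4 h replicate 2). For the course of irradiated parental cells, 114 genes higher and 9 lower became 61 and 3 on the compared arrays only, 334 and 97 with array weights, 52 and 2 without the intensity trend, 49 and 1 without replicate 2 at both times, and 39 to 102 and 0 to 17 with single arrays left out. Mitotic genes called higher, 27, numbered 16 on the compared arrays only, 15 without the trend and 37 with array weights. For the difference from the course at 0 Gy, 13 higher and 0 lower became 44 and 3 with array weights, 3 higher without the trend, and 6 to 21 higher with single arrays left out. For the knockout course, 8 higher and 0 lower became 15 and 2 with array weights, 0 higher without the trend, 5 higher with array medians subtracted, 1 lower with quantile normalization repeated, and 0 to 13 higher with single arrays left out. For the difference between the lines, 0 to 1 genes were called in each direction with single arrays left out. The cause was not tested.

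Same-numbered arrays did not deviate together throughout, so the numbers were not taken to pair the samples: correlations of deviations were 0.09, 0.48 and 0.23 in irradiated parental cells, -0.01, 0.06 and -0.04 in unirradiated parental cells and -0.05, 0.08 and 0.15 in irradiated knockout cells. Replicate 1 of irradiated parental cells at 24 h correlated better with 4 h replicate 3 (0.31) than with its own number. The other correlations between different numbers in irradiated parental cells ran between -0.45 and 0.02. Whether equal numbers mark pairs in those cells is therefore not settled. With the replicate number as a block, over all arrays and over the compared arrays only, the irradiated parental course had 248 and 340 genes higher and 46 and 82 lower, and all 123 calls remained in both. The block gave the difference from the course at 0 Gy 41 and 33 higher and 4 and 2 lower, the knockout course 66 and 67 higher and 26 and 25 lower, the difference between the lines 2 and 5 higher and 1 and 1 lower, and the unirradiated course 1 lower over all arrays.

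Under the alternatives, 452 list medians moved by less than the spread between replicates and 13 by more. Signal near background limits KCNH7, APOH and GAPT at 4 h to bounds and leaves MYD88 and SCRG1 uncertain in size.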

Other observations

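Families of near-identical genes moved together among the calls and are uncertain one by one, since their probes may read each other. MBD3L3, MBD3L4 and MBD3L5 rose by 0.87, 0.86 and 0.93, SRGAP2, SRGAP2B and SRGAP2C by 0.80, 0.55 and 0.48, and FAM72C and FAM72D by 0.43 and 0.55 (limma adjusted p below the threshold for each). With each of the 6 arrays left out in turn, the SRGAP2 call stood 6 times, MBD3L5 5, MBD3L3 4 and FAM72D 3. The SRGAP2B call stood 2 times, and those of MBD3L4, SRGAP2C and FAM72C 1 time each. These genes other than MBD3L5 were named after their values were seen, as were the 2 chromatin genes that follow. KDM5B, a histone H3 lysine demethylase, had 7.49, 7.45 and 7.11 at 24 h, against 6.57, 6.14 and 6.66 at 4 h, and rose by 0.89 (limma adjusted p = 0.00650). DNMT3B, a DNA methyltransferase, had 6.93, 6.86 and 7.03 at 24 h, against 6.11, 6.46 and 6.20 at 4 h, and rose by 0.69 (limma adjusted p = 0.00438). The groups of neither gene overlapped; the KDM5B call was lost without 24 h replicate 1 or 4 h replicate 2, and the DNMT3B call without 4 h replicate 1.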
